A study of Mus musculus with 4 samples.

Results

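The 10 transcription regulators Prdm16, Ebf2, Zic1, Pparg, Cebpa, Ppara, Zfp516, Ehmt1, Tbx15 and Irf4 set and keep the brown adipocyte fate and were followed in brown adipose tissue with and without ATF4. They were taken by gene symbol, as 10 of the 52022 genes that the transcripts of the deposited files map to, and all 10 were among the 15643 genes with enough counts to be tested. The 2 WT libraries (WT 1 and WT 2) came from wild-type male mice and the 2 KO libraries (KO 1 and KO 2) from male mice lacking ATF4 in thermogenic adipocytes, a deletion that leaves the other cells of the tissue with the gene. Both genotypes were kept on a 60% high fat food for 12 weeks with free access to it. The promoter that drove the deletion, the ages, and whether a library holds 1 mouse or several are not stated in the labels. The library names carry a prefix, S1 for WT 2 and KO 1 and S2 for WT 1 and KO 2, whose meaning the labels leave unsaid. Each prefix thus holds 1 library of each genotype.

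Brown adipocytes burn fuel to make heat, and their fate is set by a small network of DNA-binding proteins and cofactors. EBF2 marks brown precursors and opens brown-selective enhancers, PRDM16 with its partner EHMT1 holds cells on the brown rather than the muscle path, and ZFP516 binds the Ucp1 promoter. PPARG and C/EBPA drive the general fat cell programme on which the brown programme is laid, PPARA raises fatty acid oxidation, ZIC1 and TBX15 mark depots by position, and IRF4 carries the fasting and cold response to thermogenic genes.

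Total estimated counts were between 25985367 and 34813870 a library. Levels are in CPM, the count scaled to a TMM-normalized library size, and each WT or KO pair is given with library 1 first. Atf4, the deleted gene, was at 29.2 CPM (WT 1), 107 (WT 2), 24.97 (KO 1) and 24.5 (KO 2). It did not pass the test (log2 fold change -1.46, SE 0.57, edgeR adjusted p = 0.9998), and the KO minus WT difference was -2.09 within S1 and -0.25 within S2. The library labelled WT 1 thus had an Atf4 level above both KO libraries but much closer to them than to WT 2. Whether its label is right was not tested. WT 1 stands throughout for the library of that label, and every S2 difference sets it against KO 2. Ucp1, which defines the brown adipocyte, was at 5563 and 6295 CPM across the WT pair against 7024 and 5989 across the KO pair, so this marker of the labelled tissue was abundant throughout. The summed level of 12 skeletal muscle markers was 1.43 and 1.66 CPM across the WT pair against 2742 and 2524 across the KO pair. In a bulk sample, fewer cells of a type and less RNA per cell cannot be told apart, and this holds for each level given here.

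None of the 10 factors passed the KO against WT comparison. With the edgeR quasi-likelihood test and a threshold of 0.05 on adjusted p, 0 of 10 were called, against 0.780% of all genes tested. In KO 0 were higher (0.767% of all genes) and 0 lower (0.0128% of all genes). Only Tbx15 had an unadjusted p under 0.05, against 4.02% of all genes, and DESeq2 and limma on TPM also called 0. With the prefix as a block, a fit with 1 residual degree of freedom, 0 of 10 were called, against 2.05% of all genes (0 lower, against 0.473%). In that fit Ebf2, Zic1 and Tbx15 had an unadjusted p under 0.05, against 8.88%. The median log2 change of the 10 was -0.03, beside 0.00197 over all genes tested. It was -0.13 between the S1 libraries and 0.00826 between the S2 libraries. Both KO libraries lay below both WT libraries for 3 factors, Prdm16, Ebf2 and Zic1 (13.1% of all genes), and above them for 2, Ehmt1 and Tbx15 (13.2% of all genes). The KO minus WT difference had the same sign in both prefixes for 7 of 10, against 51.9% of all genes.

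**Figure D1:**
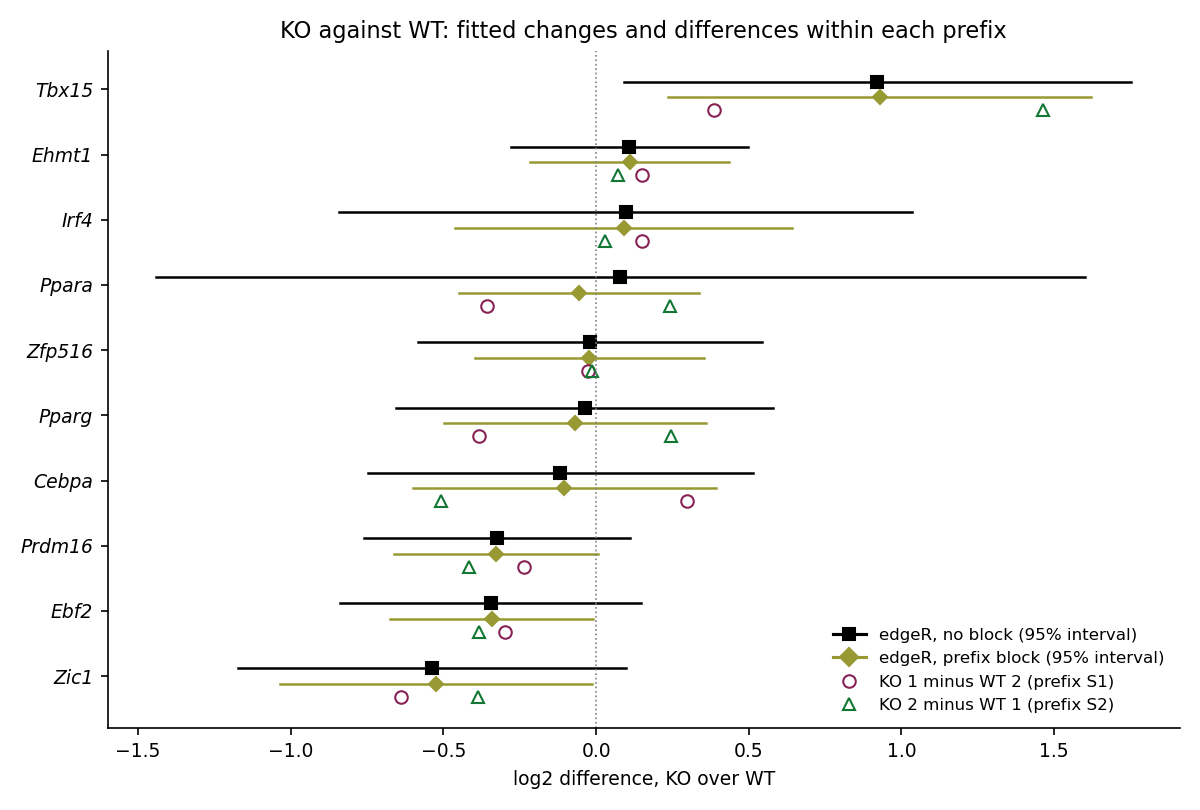
Log2 difference of KO over WT for each of the 10 factors. Squares and diamonds are edgeR fits without and with a prefix block, drawn with 95% intervals, and open symbols are the differences between the single KO and WT library of each prefix. Prdm16, Ebf2, Zic1 and Zfp516 lie below 0 by all 4 measures, Zfp516 by 0.03 at most. Ehmt1, Tbx15 and Irf4 lie above 0 by all 4, while Pparg, Cebpa and Ppara change sign between the prefixes.

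The PRDM16 group held 1 gene below WT in both KO libraries, Prdm16 itself, and none that passed the test. Prdm16 (ENSMUSG00000039410, chromosome 4, 154316125 to 154636873, minus strand, GRCm38), the coregulator that gives the group its name, was at 33.8 CPM (WT 1), 35.7 (WT 2), 30.2 (KO 1) and 25.3 (KO 2). The KO pair lay wholly under the WT pair, at means of 27.7 ± 3.52 against 34.7 ± 1.36 CPM (SD over n = 2 libraries each). Its log2 fold change of -0.32 (SE 0.18, 95% interval -0.76 to 0.11) did not pass (edgeR, adjusted p = 0.9998). With 1 library left out it ran from -0.46 without KO 1 to -0.21 without KO 2. Ehmt1, the histone methyltransferase bound to PRDM16 (ENSMUSG00000036893, chromosome 2, 24789928 to 24919614, minus strand), was at 27.2 and 25.6 CPM across the WT pair against 28.3 and 28.6 across the KO pair. Its log2 fold change was 0.11 (SE 0.16, 95% interval -0.28 to 0.50), the narrowest interval among the 10 factors. Zfp516, the zinc finger protein of the Ucp1 promoter (ENSMUSG00000058881, chromosome 18, 82910663 to 83005314, plus strand), was at 11.1 and 8.71 CPM across the WT pair against 8.52 and 11.04 across the KO pair. The 2 genotypes overlapped fully, with a log2 fold change of -0.02 (SE 0.23, 95% interval -0.58 to 0.54), and both S2 libraries were above both S1 libraries.

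Transcript values added detail for Prdm16 and Ehmt1, as a description without a test, since kallisto shares reads out among transcripts that differ by a few bases. Over the 7 protein-coding Prdm16 transcripts the summed level reached 32.9 and 35.3 CPM across the WT pair against 23.8 and 24.3 across the KO pair. The log2 fold change over protein-coding transcripts alone, a setting chosen after seeing the data, was -0.48 (edgeR, adjusted p = 0.959, or 0.407 under the prefix block). The gene sum also holds Prdm16-210, an annotated processed transcript of 8602 bases that was given 151 estimated counts in KO 1, 6.68 in KO 2 and under 1 in each WT library. For Ehmt1, the nonsense-mediated decay transcript Ehmt1-206 was at 5.94 and 6.45 CPM across the WT pair against 10.2 and 7.14 across the KO pair. The 11 protein-coding Ehmt1 transcripts were at 19.9 and 18.4 CPM across the WT pair against 16.5 and 20.2 across the KO pair, and their log2 fold change was -0.05, opposite in sign to that of the gene sum.

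The lineage markers Ebf2 and Zic1 were lower in both KO libraries, without passing the test. Ebf2, the early factor of brown precursors (ENSMUSG00000022053, chromosome 14, 67233292 to 67430918, plus strand), was at 59.6 CPM (WT 1), 47.7 (WT 2), 38.7 (KO 1) and 45.7 (KO 2). The highest KO library was only just below the lowest WT library, and the means were 53.6 ± 8.39 and 42.2 ± 4.93 CPM (SD over n = 2 libraries each). The log2 fold change was -0.35 (SE 0.20, 95% interval -0.84 to 0.15, edgeR adjusted p = 0.9998), and the S1 and S2 differences were -0.30 and -0.38. It ran from -0.50 without WT 2 to -0.18 without WT 1. A single protein-coding transcript of 5204 bases held 88.3 to 94.8% of the gene's TPM in the 4 libraries.

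Zic1, a zinc finger gene that marks the classical brown depot (ENSMUSG00000032368, chromosome 9, 91358058 to 91365810, minus strand), was at 5.002 CPM (WT 1), 6.70 (WT 2), 4.26 (KO 1) and 3.81 (KO 2). Its groups did not overlap, with means of 4.03 ± 0.322 CPM for KO against 5.85 ± 1.198 for WT (SD over n = 2 libraries each). This log2 fold change of -0.54 (SE 0.26, 95% interval -1.17 to 0.10) was the lowest of the 10 and did not pass (edgeR, adjusted p = 0.9998, or 0.542 under the prefix block). It was -0.73 without WT 1 and -0.31 without WT 2. Zic4, its relative on the opposite strand, overlaps Zic1 in the annotation and held 30 to 56 counts a library, at 1.11 and 1.52 CPM across the WT pair against 1.33 and 1.03 across the KO pair. The strand setting used by kallisto is not given here, so reads of the overlap cannot be told apart. The other overlapping genes with a value held at most 25 estimated counts a library, and 2 annotated on the strand of Ehmt1 (Gm38147 and Gm37139) have no value here.

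Markers of other fat and stromal cells differed between the libraries as well. The 4 white adipocyte markers summed to 380 and 268 CPM across the WT pair against 74.4 and 156 across the KO pair, so both KO libraries were lower, as for Prdm16, Ebf2 and Zic1. Most of this sum was Lep, at 302 and 181 CPM across the WT pair against 42.7 and 111 across the KO pair. Without a block 0 of the 4 were called by edgeR, against 0.780% of all genes. Under the prefix block all 4 were called lower in KO, against 0.473% of all genes. The 5 brown adipocyte markers summed to 7440 and 8309 CPM across the WT pair against 9271 and 7887 across the KO pair, which overlapped. The 5 markers of preadipocytes and stroma summed to 106 and 133 CPM across the WT pair against 157 and 130 across the KO pair, which overlapped too. Most of that sum was Ly6a and Cd34. Of the 5 markers 3 had a positive log2 fold change, Ly6a (0.44), Pi16 (0.41) and Cd34 (0.08), and 2 a negative one. Pdgfra, the stromal receptor that marks preadipocytes, was lower in both KO libraries, at 12.4 and 15.9 CPM across the WT pair against 10.4 and 10.6 across the KO pair (log2 fold change -0.44, SE 0.19, edgeR adjusted p = 0.9998, or 0.444 under the prefix block). The part of these cells in the levels of Prdm16, Ebf2 and Zic1 was not tested.

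The upstream windows of Prdm16 and Zic1 are shown because these are factors with both KO libraries below both WT libraries whose start sites are in the RefSeq promoter table (GRCm38.p6). Each runs 5′ to 3′ on the minus strand and ends before the first annotated exon, at chr4:154636874-154637123 and chr9:91365811-91366018, and capitals mark CG dinucleotides.
Prdm16: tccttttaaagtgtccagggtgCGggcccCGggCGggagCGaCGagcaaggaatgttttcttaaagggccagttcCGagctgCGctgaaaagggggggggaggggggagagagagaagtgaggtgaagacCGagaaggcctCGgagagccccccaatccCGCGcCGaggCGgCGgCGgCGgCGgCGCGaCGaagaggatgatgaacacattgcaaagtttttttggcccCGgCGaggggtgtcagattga
Zic1: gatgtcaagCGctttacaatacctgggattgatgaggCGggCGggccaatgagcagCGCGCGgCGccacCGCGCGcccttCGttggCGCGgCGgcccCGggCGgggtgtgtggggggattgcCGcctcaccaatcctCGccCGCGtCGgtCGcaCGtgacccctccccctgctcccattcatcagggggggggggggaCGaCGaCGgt
Both windows were rich in CG, with 22 CG dinucleotides in the 250 bases shown for Prdm16 and 26 in the 208 bases shown for Zic1. Across the 32851 start sites of the table the median was 6 in the 250 bases upstream. The 8-base C/EBP-ATF composite element TGATGCAA, searched on both strands, was in 0.791% of those 250-base windows and in 0 of the 9 windows of the 7 factors searched. The CRE palindrome TGACGTCA (1.55% of windows), the C/EBP palindrome TTGCGCAA (0.164%), the EBF palindrome (0.779%) and the PPAR direct repeat (0.0335%) were also in 0 of the 9.

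The general fat cell factors Pparg and Cebpa did not pass the test, and their genotypes overlapped. Cebpa (ENSMUSG00000034957, chromosome 7, 35119293 to 35121928, plus strand) was at 413 CPM (WT 1), 292 (WT 2), 360 (KO 1) and 291 (KO 2). The genotypes overlapped, with a log2 fold change of -0.12 (SE 0.25, 95% interval -0.75 to 0.51), and the sign was positive within S1 (0.30) and negative within S2 (-0.51). Pparg, the master regulator of fat cell formation (ENSMUSG00000000440, chromosome 6, 115360951 to 115490399, plus strand), was at 208 CPM (WT 1), 212 (WT 2), 162 (KO 1) and 247 (KO 2). The WT libraries lay between the 2 KO libraries, and the log2 fold change was -0.04 (SE 0.25, 95% interval -0.66 to 0.58), with -0.38 within S1 and 0.25 within S2.

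**Figure D2:**
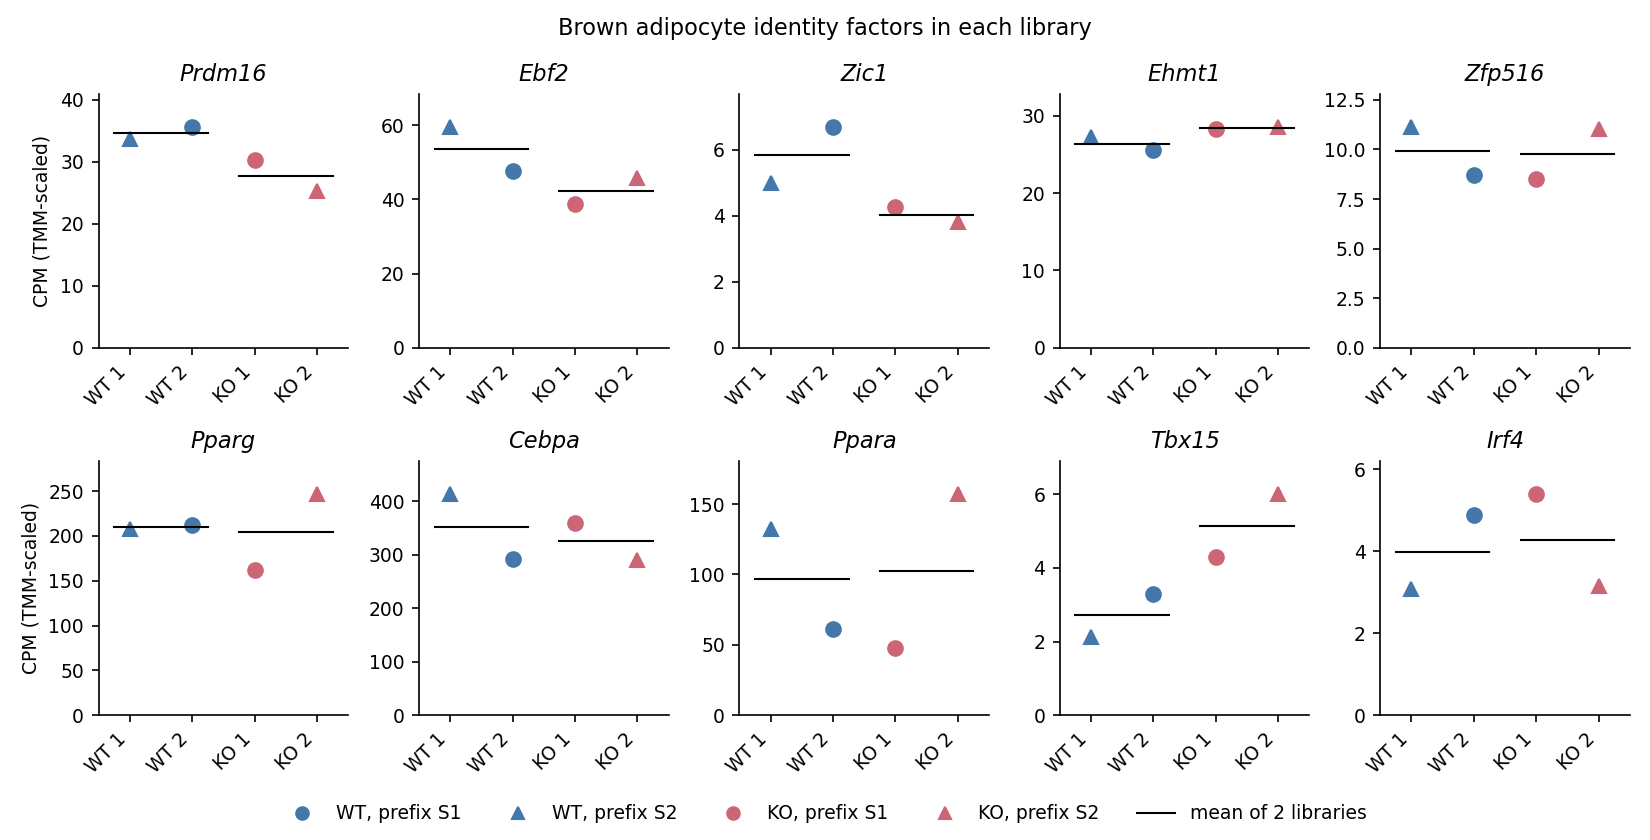
Level of each factor in each library, in CPM on TMM-scaled library sizes, with the y axis of each panel starting at 0. Circles are prefix S1, triangles prefix S2, and the lines are means of 2 libraries. Ppara runs from 47.6 to 157 CPM and separates by prefix, while Ehmt1 stays between 25.6 and 28.6.

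In the transcript estimates, the spread of Pparg between the KO libraries lay in 1 of its 2 protein forms. This is a description without a test, since kallisto shares reads out among the transcripts of a gene. Pparg2, which has extra residues at its start and is the form typical of fat cells, is read from its own first exon (start site 115422066). Pparg1, found in fat cells and in other cells such as macrophages, is read from start sites far upstream (2 transcripts, start sites 115360951 and 115362292). Pparg2 was at 129 CPM (WT 1), 129 (WT 2), 124 (KO 1) and 117 (KO 2), a narrow range. Pparg1 was at 78.2 CPM (WT 1), 82.3 (WT 2), 38.2 (KO 1) and 129 (KO 2), so KO 1 was the lowest library and KO 2 the highest. The ratio of KO 1 to WT 2 was 0.464 for Pparg1 and 0.957 for Pparg2, and that of KO 2 to WT 1 was 1.64 and 0.907. Of the summed TPM of both forms, Pparg1 made up 36.6% (WT 1), 37.7% (WT 2), 22.6% (KO 1) and 51.1% (KO 2). With 2 libraries a group an exact two-sided permutation test cannot go below p = 0.333, so none is given.

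Macrophage markers differed between the same libraries. The 7 markers summed to 159 CPM (WT 1), 124 (WT 2), 46.2 (KO 1) and 145 (KO 2), so KO 1 was lowest here too, while the highest was WT 1. Adgre1 was at 22.0, 12.2, 3.52 and 15.6 CPM and Cd68 at 13.9, 24.7, 8.09 and 12.6 CPM in that same order of libraries. The part of macrophages in the Pparg1 values was not tested.

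**Figure D3:**
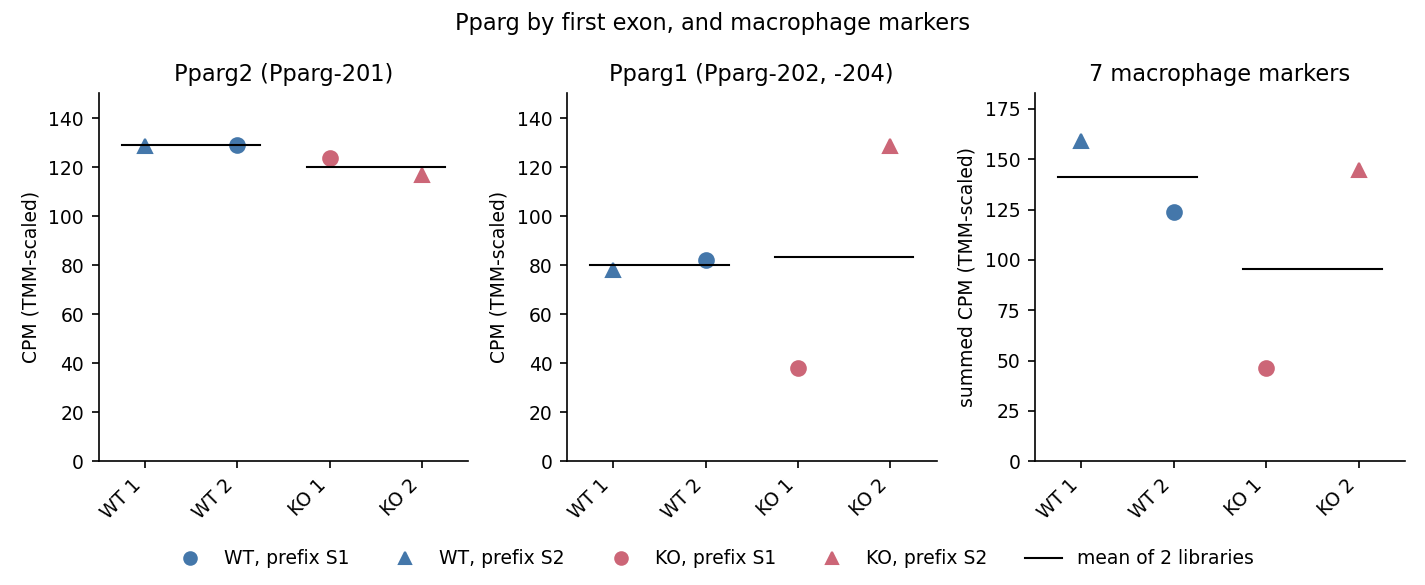
Levels of Pparg2, of Pparg1 and of 7 summed macrophage markers in each library, in CPM on TMM-scaled library sizes. Circles are prefix S1, triangles prefix S2, and lines are means of 2 libraries. Pparg2 lies between 117 and 129 CPM, and Pparg1 runs from 38.2 in KO 1 to 129 in KO 2.

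The RefSeq table has 3 start sites for Pparg, and windows upstream of 2 of them, 59717 bases apart, are shown because the forms read from these regions differed in their spread. They run 5′ to 3′ on the plus strand (GRCm38.p6) and end before the next annotated exon, at chr6:115362099-115362291 and chr6:115421816-115422065, with CG dinucleotides in capitals.
Pparg1: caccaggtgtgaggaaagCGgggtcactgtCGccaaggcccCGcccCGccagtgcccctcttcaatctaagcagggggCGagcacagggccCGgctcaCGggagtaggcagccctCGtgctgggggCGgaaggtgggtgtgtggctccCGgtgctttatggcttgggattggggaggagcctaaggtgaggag
Pparg2: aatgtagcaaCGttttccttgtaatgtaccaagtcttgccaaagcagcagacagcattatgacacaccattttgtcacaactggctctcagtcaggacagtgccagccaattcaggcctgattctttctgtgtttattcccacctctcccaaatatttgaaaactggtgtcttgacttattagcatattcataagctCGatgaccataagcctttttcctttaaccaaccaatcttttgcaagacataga
The window shown for Pparg2 held 2 CG dinucleotides and that for Pparg1 held 10. In the full 250 bases upstream, 40.8% of the bases were G or C for Pparg2 and 63.6% for this Pparg1 site, beside a median of 52.4% over all start sites. The remaining upstream site (115361144) had 82.4% and 38 CG dinucleotides in its 250 bases. Pparg2 had the lowest value among the 9 windows of the factors, whose median was 66.0%.

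Ppara, the fatty acid sensor that raises oxidation genes (ENSMUSG00000022383, chromosome 15, 85734983 to 85802819, plus strand), separated by prefix and not by genotype. It was at 133 CPM (WT 1), 61.1 (WT 2), 47.6 (KO 1) and 157 (KO 2), with both S2 libraries above both S1 libraries. In all, 3 of the 10 factors (Ppara, Zfp516 and Irf4) had S1 and S2 libraries that stood apart, against 53.2% of all genes. Ppara was the 1 factor of 10 that passed the comparison of S2 with S1, against 3.14% of all genes, and it was higher in S2 by 1.42 on the log2 scale (SE 0.18, edgeR adjusted p = 0.00407). Among cell markers, 4 of the 7 for macrophages and 2 of the 4 for white adipocytes were also called higher in S2, against 1.59% of all genes. Called lower in S2 were 1 white adipocyte, 1 endothelial, 1 brown adipocyte and 1 skeletal muscle marker, against 1.55% of all genes. Those lists held 4, 4, 5 and 9 tested markers. The part of these cells in the Ppara values was not tested. The KO against WT log2 fold change of Ppara was 0.08 (SE 0.61), with the widest 95% interval of the 10, from -1.44 to 1.60. With the prefix as a block the log2 fold change was -0.05 (SE 0.18, 95% interval -0.45 to 0.34). Left-out libraries moved it from -1.03 without KO 2 to 0.75 without WT 1. Irf4, the other factor with a prefix log2 change beyond 0.5, was at -0.71 (SE 0.25) in S2 against S1 and did not pass (edgeR, adjusted p = 0.151).

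Genes that PPARA is known to raise differed in direction between the prefixes. Of 12 such genes, Pdk4, a brake on glucose oxidation, was higher in S2, while the acyl-CoA thioesterases Acot1 and Acot2 were lower (edgeR, 1 higher and 2 lower called, against 1.59% and 1.55% of all genes). Pdk4 was at 1566 and 2545 CPM in the S2 libraries WT 1 and KO 2 and at 887 and 872 in the S1 libraries WT 2 and KO 1. Acot1 was at 0.542 and 2.16 CPM in the same S2 libraries and at 4.25 and 7.58 in the S1 libraries, and reads of Acot1 and Acot2, which are near-identical copies, may be split between them. Between the genotypes 0 of the 12 were called, against 0.780% of all genes, with a median log2 fold change of 0.14. An unadjusted p under 0.05 was found for 1 gene, against 4.02% of all genes. That gene was Ehhadh, the peroxisomal bifunctional enzyme, at 33.4 and 31.3 CPM across the WT pair against 58.8 and 68.7 across the KO pair. The unblocked fit gave Ehhadh a log2 fold change of 0.98 (SE 0.18, edgeR adjusted p = 0.155), which missed the threshold. Under the prefix block Ehhadh rose by 0.97 on that scale (SE 0.15, edgeR adjusted p = 0.00526). Ehhadh was the 1 gene of the 12 called higher in that fit, beside 246 of all 15643 genes tested. The difference was 0.91 within S1 and 1.04 within S2.

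Tbx15 and Irf4 had the lowest mean TPM over the 4 libraries of the 10, though not the lowest in each library, and both are also made by other cell types of a fat pad. Tbx15, a T-box gene of brown and subcutaneous fat that is also active in skeletal muscle (ENSMUSG00000027868, chromosome 3, 99240381 to 99354259, plus strand), rested on 67, 121, 110 and 175 counts in the libraries WT 1, WT 2, KO 1 and KO 2, in that order. It was at 2.14 and 3.29 CPM across the WT pair against 4.30 and 5.998 across the KO pair, and both KO libraries were above both WT libraries. The log2 fold change of 0.92 (SE 0.34, 95% interval 0.09 to 1.75, unadjusted p = 0.0352) did not pass over all genes (edgeR, adjusted p = 0.9998, or 0.292 under the prefix block). It was 0.39 within S1 and 1.47 within S2, where the library labelled WT 1 had an Atf4 level close to KO, and it was 0.65 without WT 1 and 1.27 without WT 2. The muscle markers Acta1 and Myh4 rose between the same groups, from 0.223 and 0.299 CPM (WT) to 664 and 455 (KO) for Acta1 and from 0 counts (WT) to 520 and 615 CPM (KO) for Myh4. Of the 12 muscle markers 9 were tested, and all 9 were called higher in KO by the edgeR test, against 0.767% of all genes. The muscle regulators Myod1, Myog and Pax7 had 0 counts in WT and 1 to 5 counts in each KO library. The part of muscle RNA in the Tbx15 values was not tested.

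Irf4, which carries the fasting signal in adipocytes and is a lymphocyte and macrophage factor as well (ENSMUSG00000021356, chromosome 13, 30749226 to 30766976, plus strand), rested on 97, 179, 138 and 92 counts in the libraries WT 1, WT 2, KO 1 and KO 2, in that order. It was at 3.09 and 4.87 CPM across the WT pair against 5.39 and 3.15 across the KO pair, so the genotypes overlapped, and both S1 libraries were above both S2 libraries. The log2 fold change was 0.10 (SE 0.38, 95% interval -0.84 to 1.03). The 5 markers of B cells and plasma cells used here summed to 3.31 CPM (WT 1), 4.63 (WT 2), 7.54 (KO 1) and 2.43 (KO 2), so the sum was also higher in both S1 libraries than in both S2 libraries. Cd79a, a chain of the B cell receptor complex, was at 0.765, 0.926, 2.38 and 0.308 CPM in that same order of libraries. Jchain, the plasma cell marker of the list, ran the other way, at 0.733 (WT 1), 0.299 (WT 2), 0.234 (KO 1) and 0.308 CPM (KO 2). The macrophage markers also ran the other way, with a sum of 159 and 145 CPM in S2 (WT 1 and KO 2) against 124 and 46.2 in S1 (WT 2 and KO 1). The 5 T cell markers summed to 0.860 CPM (WT 1), 1.03 (WT 2), 2.70 (KO 1) and 1.41 (KO 2), which overlapped between the prefixes. The part of B cells, plasma cells, T cells and macrophages in the Irf4 values was not tested.

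Per length, the 10 factors spanned a wide range of levels in every library. On the TPM scale Cebpa was highest, with a mean of 163 over the 4 libraries (range 144 to 199), followed by Pparg at 127 (89.1 to 152), and the ranges of these neighbours overlapped. Ppara came next at 34.6 (16.5 to 54.2), apart from Pparg above it and from Ehmt1 below it. Ehmt1 at 9.87 (9.15 to 10.5) and Ebf2 at 9.66 (7.04 to 11.7) did not differ beyond their ranges. Prdm16 at 4.84 (4.01 to 5.48) was below Ebf2 and above Zic1 in every library. Zic1 at 1.83 (0.944 to 2.84), Zfp516 at 1.60 (0.983 to 1.99), Tbx15 at 1.12 (0.609 to 1.75) and Irf4 at 0.9745 (0.651 to 1.54) overlapped from each to the next. The mean TPM of Cebpa exceeded that of 98.3% of the 27196 genes with a TPM above 0, and that of Irf4 exceeded 55.7% of them. Short noncoding transcripts weigh on the TPM of the low genes. A processed transcript of Zic1 of 395 bases, for example, held 49.8% of Zic1 TPM in WT 1 and none in KO 2, on 7.47 and 0 estimated counts.

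**Figure D4:**
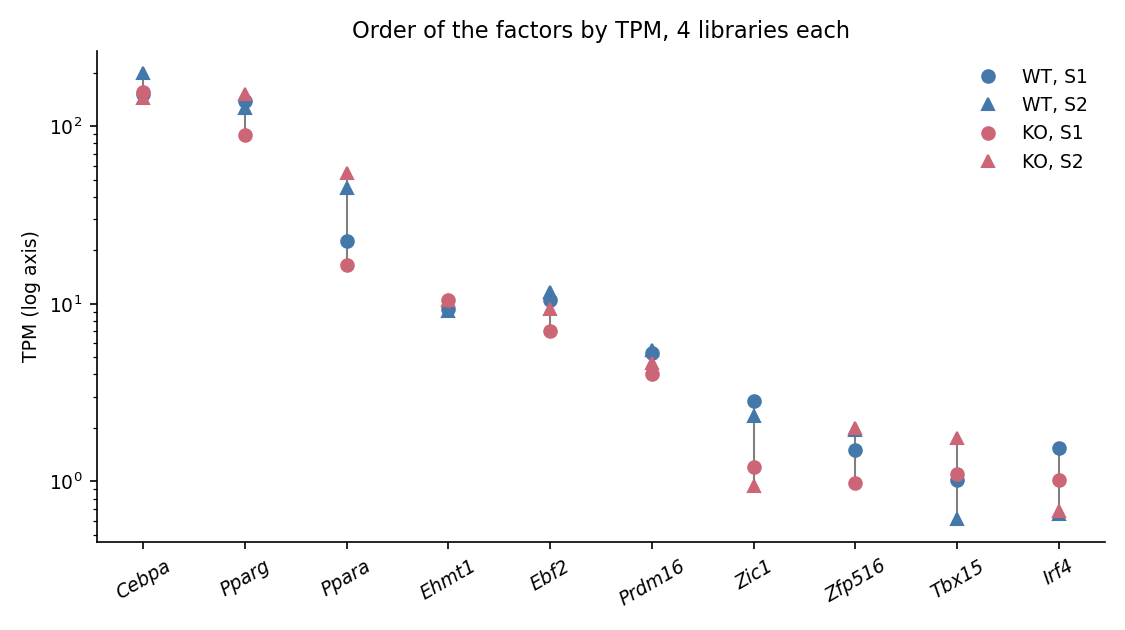
TPM of the 10 factors in the 4 libraries on a log axis, ordered by mean. Circles are prefix S1 and triangles prefix S2, and the grey lines join the lowest and the highest library. The order runs from Cebpa (mean 163) to Irf4 (mean 0.9745).

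None of the genes listed as working with the 10 factors passed the KO against WT test, beside 0.780% called over all genes. Among 11 partners of PRDM16, EBF2 and EHMT1, 0 were called, and 0 had an unadjusted p under 0.05, against 4.02% of all genes. The median log2 fold change was 0.01 (range -0.46 to 0.24). The smallest p belonged to Dpf3, the chromatin reader recruited by EBF2, at 3.44 and 4.19 CPM across the WT pair against 3.63 and 1.92 across the KO pair. Hlx, a homeobox partner of PRDM16, was at 15.96 and 13.2 CPM across the WT pair against 14.0 and 10.97 across the KO pair. Of 17 other brown adipocyte factors 16 were tested and 0 called, with a median of 0.03. The widest value was that of Zbtb16, at 11.4 CPM (WT 1), 7.19 (WT 2), 4.49 (KO 1) and 125 (KO 2), so that its log2 fold change of 2.80 (SE 1.31) rested on KO 2. Thrb, a thyroid hormone receptor, was at 26.2 and 22.6 CPM across the WT pair against 16.0 and 21.2 across the KO pair (log2 fold change -0.39, SE 0.20).

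Among restraints on the brown programme none passed, beside 0.780% called over all genes. Of 9 repressors 8 were tested, 0 were called and the median was -0.16. A negative log2 fold change was found for 7, beside 7767 of all 15643 genes tested. The KO minus WT difference was positive for 1 of the 8 within S1 and for 4 within S2. Nrip1, a corepressor of nuclear receptors, was the 1 gene with an unadjusted p under 0.05, against 4.02% of all genes. It was at 10.7 and 11.3 CPM across the WT pair against 7.85 and 8.12 across the KO pair (log2 fold change -0.46, SE 0.17, edgeR adjusted p = 0.9998). Rbl1, a pocket protein, was at 2.71 and 4.03 CPM across the WT pair against 2.54 and 1.75 across the KO pair. Among 26 relatives of the 10 factors by protein family 19 were tested and 0 called, with a median of 0.02, and the nearest to the threshold was Irf7, at 7.65 and 9.31 CPM across the WT pair against 10.8 and 9.80 across the KO pair.

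Downstream, the 12 common fat cell genes had log2 fold changes between -0.14 and 0.25 with a median of -0.06. Of these 0 were called, against 0.780% of all genes. Plin1, the lipid droplet coat protein, was at 1151 and 986 CPM across the WT pair against 817 and 1120 across the KO pair, and Cd36, which takes up fatty acids, at 1867 and 1886 across the WT pair against 1629 and 1887 across the KO pair. Of 11 brown-selective genes 10 had a positive log2 fold change, beside 7876 of all 15643 genes tested. The median was 0.10 and 0 were called, against the same 0.780%. The KO minus WT difference was positive for 8 of the 11 within S1 and for 7 within S2, with the same sign in both for 6. Kcnk3, a potassium channel of brown fat, was at 168 and 182 CPM across the WT pair against 202.4 and 224 across the KO pair (log2 fold change 0.28, SE 0.18). Cox7a1 and Cox8b, respiratory subunits shared with muscle, had log2 fold changes of 0.27 and 0.29 (SE 0.23 and 0.26). Dio2, which activates thyroid hormone, had the only negative log2 fold change of the 11 (-0.87, SE 0.34). It was the 1 brown-selective gene called lower under the prefix block, against 0.473% of all genes. Dio2 fell by 0.92 on the log2 scale in that fit (SE 0.16, edgeR adjusted p = 0.0132).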

How the data were processed

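Brown adipose tissue RNA was taken up in TRIzol and cleaned with an RNeasy kit before TruSeq stranded mRNA library construction, per the labels. The submitters' processing notes name kallisto 0.45.0 and the build mm10. Per the file headers, the authors deposited an estimated count and a TPM value for each of 141450 transcripts a library. Neither the transcript set nor the strand setting is given in the sources used here.

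Transcripts were joined to GENCODE vM21 (GRCm38) by Ensembl identifier, which matched 138191. The 3259 others held 0.992 to 1.04% of the counts and were left out. Gene sums of the estimated counts were rounded to whole numbers. The main test was edgeR 4.0.16 (R 4.3.3), quasi-likelihood, TMM, filterByExpr (minimum count 10, total 15), genotype as the sole term, with Benjamini-Hochberg adjustment over 15643 genes and 2 residual degrees of freedom. SEs were derived from each fitted log2 change with its F statistic, and 95% intervals from that SE. Differences within a prefix are log2 CPM with a prior count of 2. The test was first run on simulated counts drawn without a prefix difference, so that run cannot show how it behaves with one. The p-values reflect spread among these libraries, which may be technical, since the labels do not say whether each is a separate animal.

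Alternatives were DESeq2 size factors, no filter, at least 1 CPM in 2 libraries, the replicate number or the prefix as a block, each library left out, DESeq2 1.42.0, limma 3.58.1 on log2(TPM + 1) and on log2(TPM + 0.1), and, chosen after seeing the data, protein-coding transcripts alone. The members and lists were chosen with earlier results of these data known. The named genes were the 10 factors, Atf4, up to 4 genes of the smallest p in each list and defining cell markers. Any others (Zic4, Acot2, Myod1, Myog, Pax7, Jchain, Gm38147, Gm37139) were named after their values were seen. Promoter windows came from RefSeq (GRCm38.p6) for 7 of the 10 factors. One marker of the B cell list is not reported here and was left out of its sum.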

Additional observations from a re-analysis of the deposited data

How the results depend on the processing

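In each of 14 alternatives 0 of the 10 factors were called. Prdm16, Ebf2 and Zic1 were below 0 and Tbx15 above 0 in all 14. The count of genes called, 122, was 457 without a filter, 320 with the prefix as a block, 218 with DESeq2, and 158 to 235 with 1 library left out. The count for S2 against S1, 491, was 1446 without a filter. The factors' median log2 change, -0.03, was -0.17 with limma on log2(TPM + 1), -0.23 on log2(TPM + 0.1) and -0.24 to 0.052 with 1 library left out. These TPM values carry no TMM scaling, and with the smaller pseudocount the median of all genes was -0.11, which leaves -0.12 between the factors and all genes. Signs turned for Ppara under a replicate number block (-0.056), under a prefix block (-0.055, and -0.042 on protein-coding transcripts alone) and with limma (-0.085 and -0.093), for Irf4 with limma (-0.15 and -0.25), and for Ehmt1 on protein-coding transcripts alone (-0.048, and -0.051 with a prefix block). With 1 library left out the log2 changes ran from -0.35 to 0.15 for Cebpa, -0.23 to 0.17 for Zfp516, -0.38 to 0.24 for Pparg, -0.33 to 0.46 for Irf4 and -1.03 to 0.75 for Ppara. The cause was not tested. Over 15643 genes the deviations of WT and KO libraries correlated at -0.38 when matched by replicate number. Matching by prefix gives 0.38, the same value with its sign turned by construction, so it adds no further result. The prefix block takes up this crossed pairing. With the replicate number as a block 164 genes and 0 of the factors were called. The low counts of Tbx15, Irf4 and Zic1 limit what these libraries can show for them.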
